A study of Mus musculus with 3 samples.

Results

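Hyaluronan and lubricin are the main large molecules of the fluid that fills a joint, and 9 genes that make, bind, cut or add to them were followed here in digit cells taken around the time joints form: Has1, Has2, Has3, Cd44, Hmmr, Hyal1, Hyal2, Tmem2 and Prg4. The genes were chosen by symbol, and all 9 were found among the 23284 gene symbols of the expression files. RNA was measured by sequencing in 3 libraries, 1 for each sorted cell population of C57/bl6 mouse embryos. The Lgr5+ library held GFP-positive cells of forelimb digits at E14.5 (ages are in embryonic days) from Lgr5-eGFPCreERT2/+ embryos, labelled as interzone, the strip of flattened cells where a joint will form. The Lgr5- library held GFP-negative cells of the same genotype, tissue and age. The Sox9+ library held GFP-positive digit cells from Sox9-eGFP/+ embryos at E13.5, and Sox9 marks the condensing cells that give rise to cartilage. In all 3 populations the digits had been digested with TrypLE and DNase for 20 min and the libraries made from 10 ng of total RNA. A sort by GFP follows the reporter and not the position of a cell, the GFP-negative cells are whatever else the digit held, and neither the limb of the Sox9+ cells nor the number of embryos pooled is given in the sources used here. The Sox9+ library differs from the other two in genotype, age and reporter together, so that these cannot be told apart in any comparison with it.

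Hyaluronan is a long unbranched sugar chain made at the plasma membrane by the hyaluronan synthases and pushed out of the cell as it grows. Cells hold it through receptors such as CD44, matrix proteoglycans bind it into large aggregates, and hyaluronidases cut it. In mouse limbs the skeletal elements and joints need Has2, and the separation of the opposing surfaces of a joint, called cavitation, is accompanied by hyaluronan in the gap. Lubricin, the product of Prg4, is a mucin-like glycoprotein that coats joint surfaces later on and lets them slide.

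With 1 library for each population the differences below have no replicate check, and no test was made. Levels are FPKM (sequenced fragments per unit of transcript length and of library size). Differences are log2 ratios of FPKM + 1, which understate the change of genes at low levels. A gene was taken as measured in a comparison when the higher library reached 1 FPKM, and a difference of 2-fold or more was counted. In bulk RNA, fewer cells of a type and less RNA per cell cannot be told apart.

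Of the label genes, Lgr5 was highest in its own library and Sox9 was not. Lgr5 was at 26.75 FPKM in Lgr5+, 1.36 FPKM in Lgr5- and 3.48 FPKM in Sox9+ cells. The Lgr5+ library had the higher value for 9 of 14 interzone genes by 2-fold or more against the Lgr5- library (Gdf5, Dkk3, Barx1, Osr2, Dcx, Enpp2, Erg, Sfrp2 and Wnt4). Lower in Lgr5+ than in Lgr5- cells were 2 of the 14, Gdf6 at -0.74 and Col3a1 at -0.28 on the log2 scale. The interzone list was chosen with earlier results of these data known. Sox9 was at 332.02 FPKM in Lgr5+, 147.08 FPKM in Lgr5- and 254.73 FPKM in Sox9+ cells. The 12 cartilage genes, Sox9 among them, summed to 3344, 2086 and 8101 FPKM in the Lgr5+, Lgr5- and Sox9+ libraries. Most of these sums was Col2a1, at 2253, 1401 and 5304 FPKM. Between Lgr5+ and Lgr5- cells 3 of the 12 were at least 2-fold higher (Sox9, Sox5 and Sox6). In the same comparison 2 were at least 2-fold lower, Matn1 at -1.16 and Comp at -1.77. Markers of other cells also moved: 6 red blood cell genes summed to 150.9, 3549 and 119.3 FPKM in the same order of libraries, 8 muscle genes to 102.7, 27.1 and 18.6 FPKM, 10 epidermis genes to 72.8, 21.3 and 42.2 FPKM, 10 macrophage genes to 83.9, 44.4 and 11.8 FPKM, and 8 endothelium genes to 10.7, 14.4 and 5.81 FPKM. Not every gene followed its sum. In Lgr5+ over Lgr5- cells 7 of 8 measured macrophage genes lay above 0 and Lyz2 lay below, at -0.79. Of 9 measured epidermis genes 8 lay above 0 and Epcam lay below, at -0.99. Fcgr1 was listed at 0 in the Sox9+ library, while every other gene of these 5 lists was above 0 in all libraries. The precursor ribosomal RNA Rn45s took 1.86%, 6.13% and 6.43% of the summed FPKM of the Lgr5+, Lgr5- and Sox9+ libraries. The part of these in the results on the 9 genes was not tested, except that scaling the libraries without Rn45s and the haemoglobin genes is given where it changes a count.

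Across the 9 genes the highest levels per transcript length were those of genes for cutting hyaluronan, though not of Hyal1. Hyal2 and Tmem2 led in every library, Has2, Hmmr and Hyal1 lay in the middle, and Cd44, Prg4 and Has1 lay near 1 to 3 FPKM, as the plot of levels by gene shows. Has3 did not reach 1 FPKM in any library and was not measured in any comparison.

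**Figure D1:**
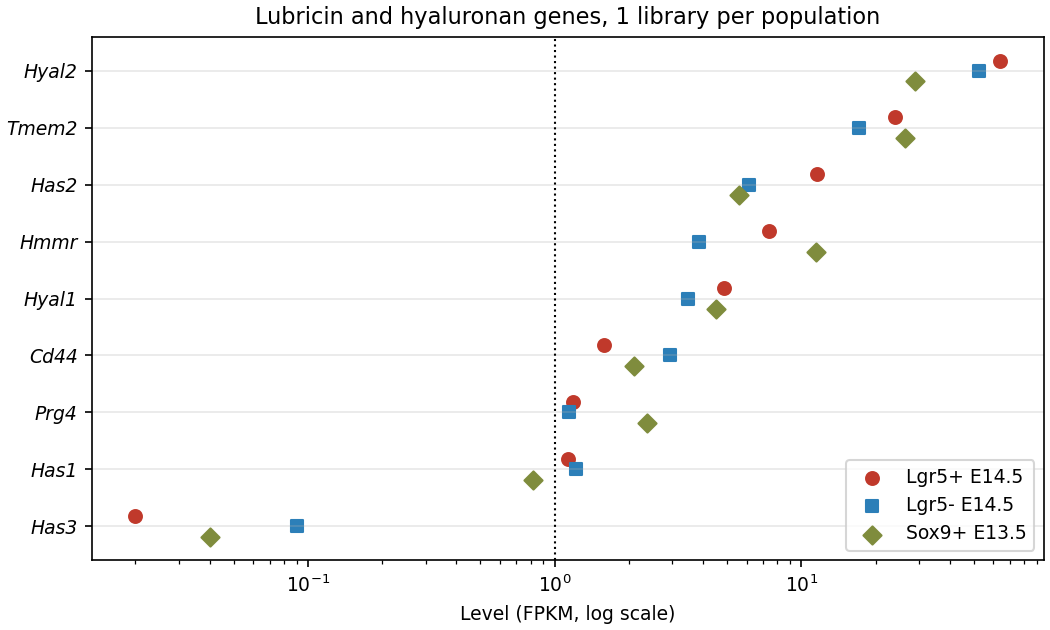
Level of each of the 9 genes in FPKM on a log scale (horizontal axis), 1 marker for each library, with the dotted line at 1 FPKM. Hyal2 stands at 64.18, 52.5 and 28.98 FPKM in the Lgr5+, Lgr5- and Sox9+ libraries, and Has3 lies below 0.1 FPKM in all of them.

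Of the 8 measured genes, none differed by 2-fold or more between Lgr5+ and Lgr5- cells of the same age. In that comparison 453 of 12438 measured genes were at least 2-fold higher (3.64%) and 235 were at least 2-fold lower (1.89%). Against Sox9+ cells, 1 of the 8 was at least 2-fold higher in Lgr5+ cells, Hyal2, and none was lower, where 4.33% of 12492 genes were higher and 3.96% lower. In Lgr5- against Sox9+ cells 1 of the 8 was at least 2-fold lower, Hmmr, and none was higher, where 4.94% of 12482 genes were lower and 3.08% higher. Counts of 0 or 1 among 8 genes are near these backgrounds. The same shares of all genes stand beside the counts of the gene lists. The split of all genes moved with the scaling: higher genes made up 65.8% of those counted in Lgr5+ against Lgr5- cells and 52.5% after upper-quartile scaling, 52.2% in Lgr5+ against Sox9+ cells, 64.8% in TPM (each library set to 1 sum), 47.5% with median-of-ratios and 44.0% with upper-quartile scaling, and 38.4% in Lgr5- against Sox9+ cells, 52.3% in TPM and 49.8% without Rn45s and the haemoglobin genes.

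The median log2 ratio of the 8 measured genes was 0.34 in Lgr5+ over Lgr5- cells, beside 0.08 for all genes. It was -0.02 in Lgr5+ over Sox9+ cells, beside 0.06 for all genes, and -0.09 in Lgr5- over Sox9+ cells, beside -0.01. Between the E14.5 populations 6 of the 8 lay above 0, and Has1 and Cd44 lay below; for Prg4 the sign turned under median-of-ratios and upper-quartile scaling, to -0.00 and -0.05. The 8 genes did not share 1 direction in any comparison. The 3 comparisons share libraries with each other.

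**Figure D2:**
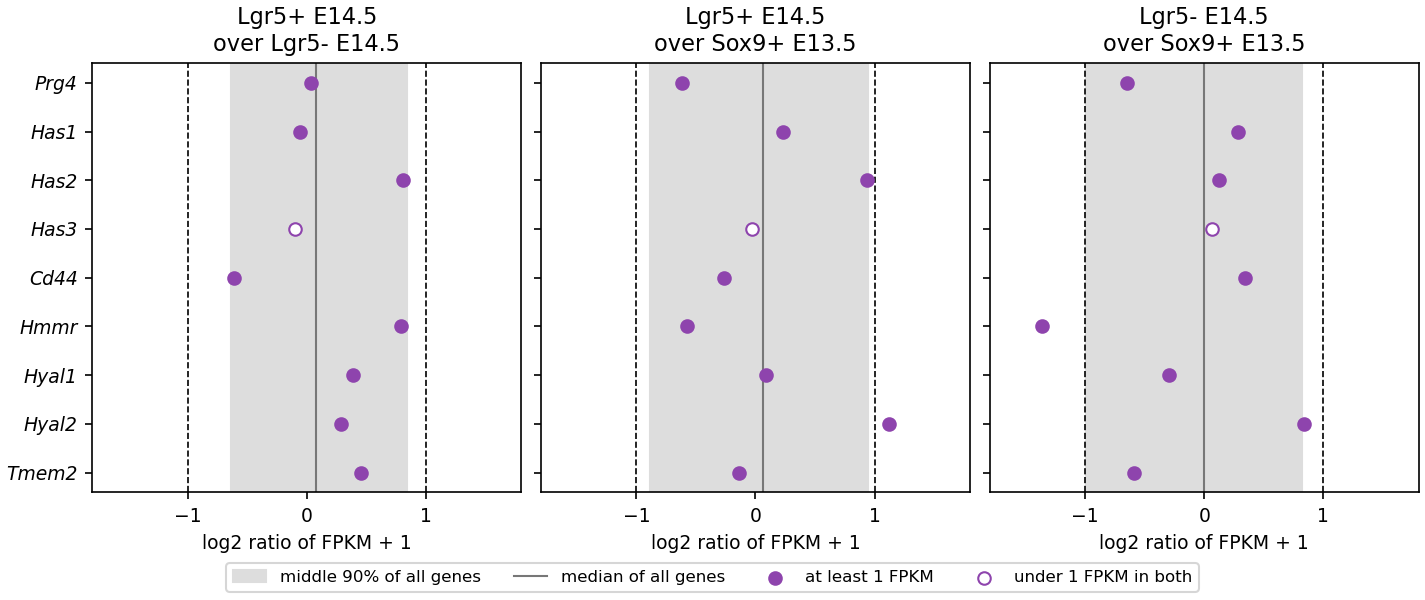
Log2 ratio of FPKM + 1 for each of the 9 genes (horizontal axis) in the 3 comparisons, 1 panel each; grey bands hold the middle 90% of all measured genes, the grey line is their median, and dashed lines mark 2-fold. Hyal2 in Lgr5+ over Sox9+ cells at 1.12 and Hmmr in Lgr5- over Sox9+ cells at -1.36 are the 2 filled points past the dashed lines.

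The synthases came first in the pathway, and Has2 accounted for most of their RNA. Has2, the synthase the mouse embryo cannot do without, stood at 11.55 FPKM in Lgr5+ cells, 6.16 FPKM in Lgr5- cells and 5.57 FPKM in Sox9+ cells. The Lgr5+ library was high and the other two were close to each other. The difference was 0.81 on the log2 scale, or 1.75-fold higher, in Lgr5+ over Lgr5- cells, and 0.93, or 1.91-fold higher, in Lgr5+ over Sox9+ cells, while Lgr5- and Sox9+ cells differed by 0.12, or 1.09-fold. Both Lgr5+ differences lay inside the middle 90% of all genes, whose upper ends were 0.84 and 0.94. The difference from Sox9+ cells reached 2-fold with a pseudocount of 0.1 (1.04), in TPM (1.12) and without Rn45s and the haemoglobin genes (1.01), and as the plain ratio of FPKM it was 2.07. Relative to the median of all genes it was 0.87, and 0.92 in TPM.

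Has2 lies on the minus strand at chr15:56665627-56694539 of GRCm38, and 182 of its 4237 exonic bases (4.30%) are shared with Has2as, its antisense transcript on the other strand, called Has2os in the GENCODE annotation. Has2as was at 3.49 FPKM in Lgr5+ cells, 3.59 FPKM in Lgr5- cells and 1.84 FPKM in Sox9+ cells. Unlike Has2, it was about level between the E14.5 populations, at -0.03 on the log2 scale. The ratio of Has2 to Has2as was 3.31 in Lgr5+, 1.72 in Lgr5- and 3.03 in Sox9+ cells. The library kit does not mark the strand, so reads of the shared bases cannot be told apart.

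Has1, which makes hyaluronan at a slower rate than Has2, was at 1.13 FPKM in Lgr5+, 1.22 FPKM in Lgr5- and 0.82 FPKM in Sox9+ cells. All 3 values sat around 1 FPKM, and the log2 ratios of -0.06, 0.23 and 0.29 in Lgr5+ over Lgr5-, Lgr5+ over Sox9+ and Lgr5- over Sox9+ cells were small. Has3, the third synthase, was at 0.02, 0.09 and 0.04 FPKM in Lgr5+, Lgr5- and Sox9+ cells. The synthases summed to 12.7 FPKM in Lgr5+, 7.47 FPKM in Lgr5- and 6.43 FPKM in Sox9+ cells, and Has2 made up 90.9%, 82.5% and 86.6% of those sums.

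Synthases use 2 activated sugars, UDP-glucuronic acid and UDP-N-acetylglucosamine, and 1 of 11 genes that supply them passed 2-fold between the E14.5 populations. Beside this, 3.64% of all measured genes were at least 2-fold higher in Lgr5+ than in Lgr5- cells. All 11 supply genes were measured. In Lgr5+ over Lgr5- cells their log2 ratios were above 0, with a median of 0.40 beside 0.08 for all genes and the lowest at 0.00 for Gfpt1; under median-of-ratios scaling, upper-quartile scaling and scaling without Rn45s and the haemoglobin genes 10 of 11 lay above 0. In Lgr5+ over Sox9+ cells none passed 2-fold, 8 lay below 0 and the median was -0.34, beside 0.06 for all genes. In Lgr5- over Sox9+ cells 4 were at least 2-fold lower, beside 4.94% of all genes, and none was higher. The median there was -0.87, beside -0.01 for all genes.

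Gfpt2, which catalyses the first step of the hexosamine pathway, was at 50.6 FPKM in Lgr5+, 22.9 FPKM in Lgr5- and 64.04 FPKM in Sox9+ cells. It was the gene past 2-fold between the E14.5 populations, at 1.11, and this was 0.99 with a pseudocount of 5 and 0.95 after upper-quartile scaling. Ugdh, which makes UDP-glucuronic acid, was at 93.66, 60.41 and 158.81 FPKM in Lgr5+, Lgr5- and Sox9+ cells. Lgr5- cells were the lowest for both genes, at -1.44 for Gfpt2 and -1.38 for Ugdh over Sox9+ cells. The other genes past 2-fold in that comparison were Slc35d1, a transporter of UDP-sugars (22.18, 12.21 and 41.78 FPKM in Lgr5+, Lgr5- and Sox9+ cells, -1.70), and the hexokinase Hk2 (9.58, 5.43 and 13.46 FPKM, -1.17; -0.82 with a pseudocount of 5). Among the highest genes, Gpi1, a glycolytic isomerase, stood at 115.41, 87.34 and 102.03 FPKM and Ugp2, which makes UDP-glucose, at 34.21, 22.67 and 42.48 FPKM in Lgr5+, Lgr5- and Sox9+ cells. These sugars also build the sulphated chains of cartilage proteoglycans, and the cartilage genes were lower in the same comparison, with 11 of 12 at least 2-fold lower in Lgr5- than in Sox9+ cells; their part in the supply genes was not tested.

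**Figure D3:**
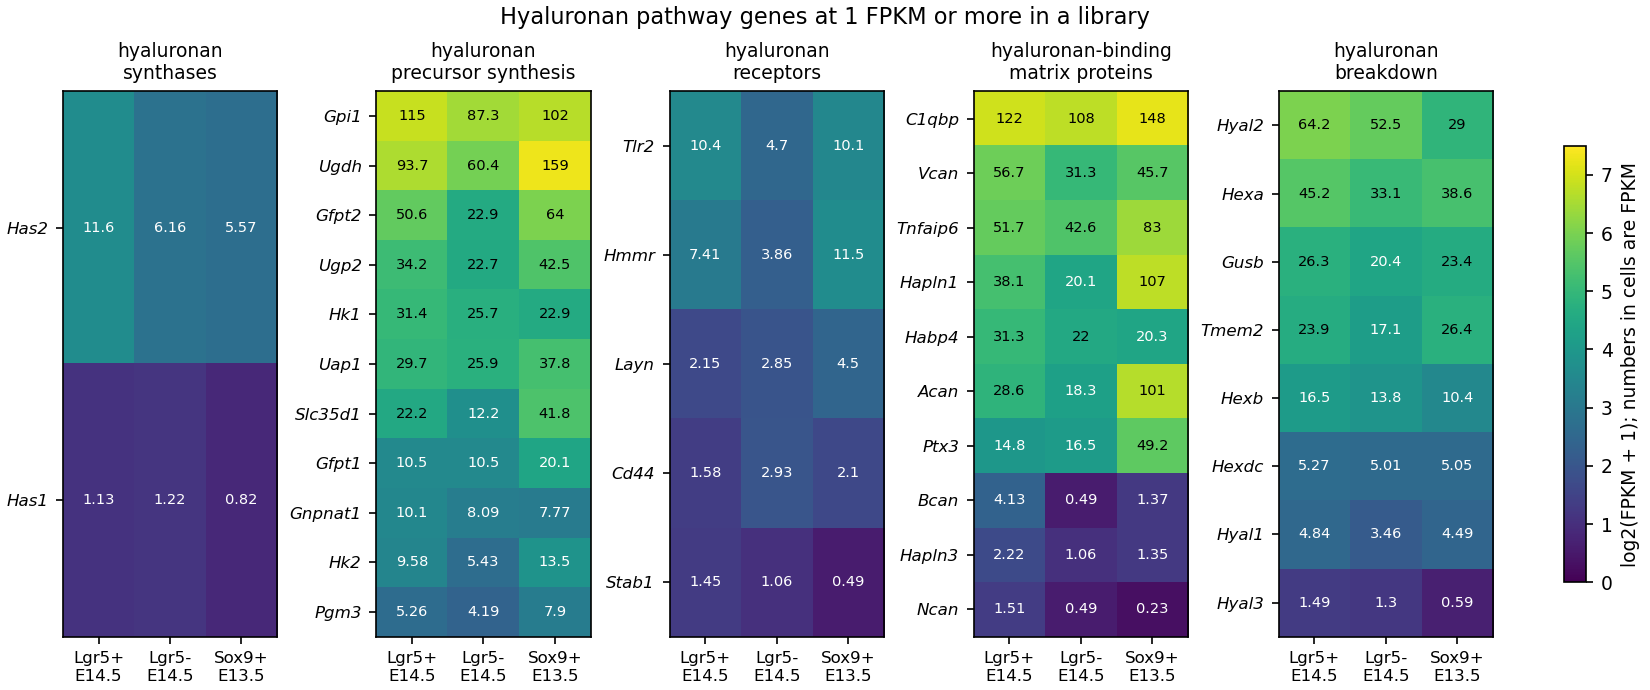
FPKM of the genes of 5 lists (synthases, precursor supply, receptors, binding matrix proteins, breakdown) that reached 1 FPKM in a library, as columns for the Lgr5+, Lgr5- and Sox9+ libraries, with colour for log2(FPKM + 1) and the FPKM printed in each cell. The rows of Ugdh, Hapln1 and Acan are brightest in the Sox9+ column, at 158.81, 107.05 and 101.26 FPKM, and the row of Hyal2 is brightest in the Lgr5+ column, at 64.18 FPKM.

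The receptors went in different directions. Cd44, the main cell-surface receptor of hyaluronan, was at 1.58 FPKM in Lgr5+ cells, 2.93 FPKM in Lgr5- cells and 2.1 FPKM in Sox9+ cells. The Lgr5- library was the highest and the Lgr5+ library the lowest, with a log2 ratio of -0.61 in Lgr5+ over Lgr5- cells, or 1.52-fold lower, near the lower end of the middle 90% of all genes at -0.63. Against Sox9+ cells the log2 ratio was -0.26 in Lgr5+ and 0.34 in Lgr5- cells. Cd44 lies at chr2:102811141-102901665 on the minus strand and shared no exonic base with another gene.

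Hmmr, which codes for the receptor RHAMM and is also a protein of the mitotic spindle, was at 7.41 FPKM in Lgr5+ cells, 3.86 FPKM in Lgr5- cells and 11.49 FPKM in Sox9+ cells. The 3 libraries were spread apart, with the Lgr5- library the lowest. Its log2 ratio was 0.79 in Lgr5+ over Lgr5- cells, or 1.73-fold higher. It was -0.57 in Lgr5+ over Sox9+ cells, or 1.49-fold lower, and -1.36 in Lgr5- over Sox9+ cells, or 2.57-fold lower, below the middle 90% of all genes in that comparison. With a pseudocount of 5 this last ratio was -0.90, short of 2-fold, and relative to the median of all genes it was -1.36 as deposited and -1.44 in TPM.

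Since Hmmr serves dividing cells, 17 mitosis genes are given beside it. They summed to 491.9 FPKM in Lgr5+, 368.8 FPKM in Lgr5- and 771.7 FPKM in Sox9+ cells, the same order as Hmmr. In Lgr5+ over Lgr5- cells 15 of the 17 lay above 0 and none passed 2-fold, with a median of 0.33 and a range of -0.14 for Mki67 to 0.74 for Ube2c, so that Hmmr at 0.79 lay above all 17. In Lgr5+ over Sox9+ cells all 17 lay below 0 (16 in TPM), with a median of -0.67, and none passed 2-fold, though 1 did with median-of-ratios and 2 with upper-quartile scaling. In Lgr5- over Sox9+ cells 8 of the 17 were at least 2-fold lower, with a median of -0.95 and a range of -1.41 for Ube2c to -0.63 for Kif20a (the others past 2-fold were Top2a, Ccna2, Ccnb1, Bub1, Kif11, Tpx2 and Cenpe), and 16 of the 17 lay above Hmmr. The number past 2-fold was 2 in TPM and without Rn45s and the haemoglobin genes, 6 after upper-quartile scaling and 1 with a pseudocount of 5. Ube2c, a ubiquitin-conjugating enzyme of mitotic exit, was at 122.19, 72.81 and 194.69 FPKM, Birc5, which codes for survivin, at 70.98, 54.82 and 106.66 FPKM, and Top2a, a DNA topoisomerase, at 42.81, 34.27 and 72.49 FPKM in Lgr5+, Lgr5- and Sox9+ cells. The haemoglobin-rich Lgr5- library was the lowest in 15 of the 17; the part of red blood cell RNA in this was not tested beyond the scaling given.

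**Figure D4:**
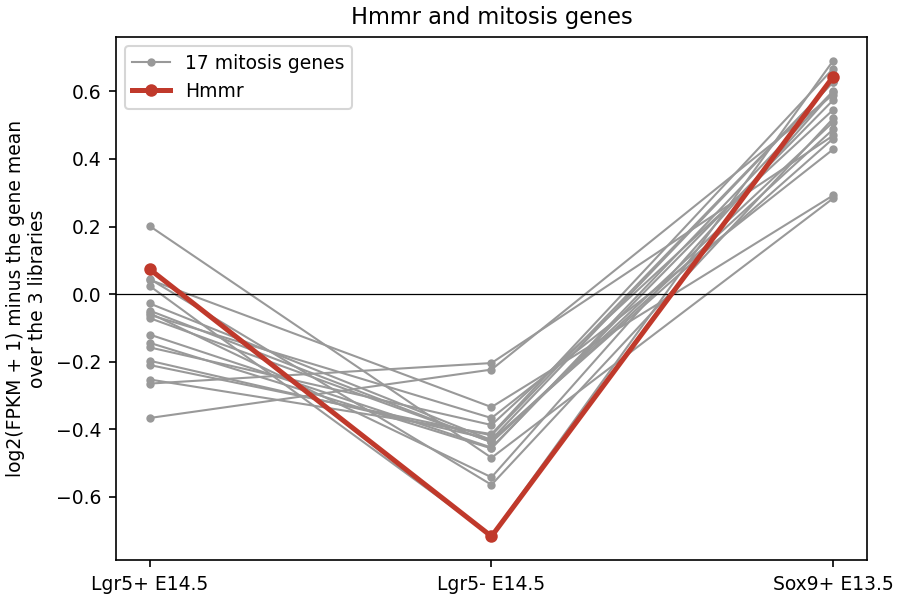
Log2(FPKM + 1) of Hmmr (thick red line) and of 17 mitosis genes (grey lines) minus the mean of each gene over the 3 libraries (vertical axis), for the Lgr5+, Lgr5- and Sox9+ libraries; lines join the values of 1 gene and stand for no course in time. Hmmr follows the low point in the Lgr5- library and lies below the 17 genes there.

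The promoter of Hmmr is printed because it carries letters that are common in front of mitosis genes. The window runs from 250 bases before to 50 after the start of the RefSeq gene on the minus strand, at chr11:40733388-40733687 of GRCm38.p6, and the gene spans chr11:40701395-40733422 in the GENCODE annotation. Capitals mark CCAAT boxes, read here on the other strand as ATTGG, and a TTTGAA match to the CHR element, a motif of cell cycle gene promoters.
Hmmr promoter: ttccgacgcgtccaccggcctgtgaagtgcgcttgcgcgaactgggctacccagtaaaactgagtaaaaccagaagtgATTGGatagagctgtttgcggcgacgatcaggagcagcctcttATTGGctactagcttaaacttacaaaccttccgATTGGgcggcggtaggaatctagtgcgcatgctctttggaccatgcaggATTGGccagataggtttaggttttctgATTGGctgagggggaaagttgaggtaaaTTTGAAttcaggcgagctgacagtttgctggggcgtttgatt
Searched on both strands, the window held 5 CCAAT matches, all on the other strand, 1 TTTGAA match beginning 8 bases after the start, 1 GGGCGG (GC box), which overlaps the third ATTGG and is left in lower case outside it, and no TATAAA. Of 32851 RefSeq promoter windows of the same length, 37.4% held CCAAT, 1.06% held 4 or more, 17.9% held TTTGAA, 35.7% held GGGCGG, 13.6% held TATAAA, and 6.95% held both CCAAT and TTTGAA. A promoter was given for 13 of the 17 mitosis genes. Of these 13, 12 held CCAAT, 9 held TTTGAA, the same 9 held both, and 2 held 4 or more CCAAT matches. A gene was counted when any of its windows held the match, while the percentages are of single windows, so the units are unlike. GGGCGG was held by 12 of the 13 and TATAAA by none. The pair is not particular to Hmmr among the 9 genes. The window of Has1 also held 1 CCAAT and 1 TTTGAA match, and that of Hyal1 held 1 CCAAT match. A match is a description of the letters and not a bound site.

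The other receptors were mostly low. Of 8 listed receptors 5 were measured, and Lyve1 and Stab2, receptors of lymphatic and sinusoidal endothelium, and Tlr4 stayed under 1 FPKM in every library. Tlr2, a pattern receptor that also responds to hyaluronan fragments, was at 10.44 FPKM in Lgr5+, 4.7 FPKM in Lgr5- and 10.1 FPKM in Sox9+ cells. Its log2 ratio of 1.01 in Lgr5+ over Lgr5- cells made it the 1 receptor of 5 past 2-fold there, beside 3.64% of all genes. The ratio was 0.67 with a pseudocount of 5, 0.95 with median-of-ratios scaling and 0.86 with upper-quartile scaling. Without Rn45s and the haemoglobin genes it was 0.97. Layn, which codes for layilin, was at 2.15, 2.85 and 4.5 FPKM in Lgr5+, Lgr5- and Sox9+ cells. No receptor passed 2-fold in Lgr5+ over Sox9+ cells, and Hmmr was the 1 that did in Lgr5- over Sox9+ cells.

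Of the genes for proteins tied to CD44 inside and outside the cell, 1 passed 2-fold, in both comparisons with Sox9+ cells. Ezr was short of it at -0.80 in Lgr5+ over Sox9+ cells. Ank3 was at 0.81 in Lgr5- over Sox9+ cells and at -0.58 in Lgr5+ over Lgr5- cells. Of 9 listed partners all were measured and none passed 2-fold between the E14.5 populations. Spp1, which codes for the CD44 ligand osteopontin, was at 2.13 FPKM in Lgr5+, 2.5 FPKM in Lgr5- and 14.72 FPKM in Sox9+ cells, and was lower than in Sox9+ cells in both, at -2.33 and -2.17. Mmp14, a membrane protease that sheds CD44, was the highest at 190.03, 147.98 and 139.37 FPKM, and Rdx, which codes for the membrane linker radixin, stood at 71.83, 61.18 and 84.61 FPKM in Lgr5+, Lgr5- and Sox9+ cells.

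Among matrix proteins that bind hyaluronan, 3 genes were at least 2-fold lower in both E14.5 populations than in Sox9+ cells. Acan, which codes for aggrecan, the main proteoglycan of cartilage, was at 28.6 FPKM in Lgr5+, 18.29 FPKM in Lgr5- and 101.26 FPKM in Sox9+ cells. Hapln1, the link protein that fixes aggrecan to hyaluronan, was at 38.08, 20.13 and 107.05 FPKM, and Ptx3, a pentraxin of hyaluronan matrices, at 14.82, 16.5 and 49.16 FPKM in the same libraries. All of them were highest in Sox9+ cells, with log2 ratios of -1.79, -1.47 and -1.66 in Lgr5+ over Sox9+ cells and of -2.41, -2.35 and -1.52 in Lgr5- over Sox9+ cells for Acan, Hapln1 and Ptx3. They were the 3 genes at least 2-fold lower in each of these comparisons, of 10 measured in the first, with a median of 0.02, and 9 in the second, with a median of -0.67. Acan and Hapln1 also belong to the cartilage list.

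Vcan, which codes for versican, a hyaluronan-binding proteoglycan of embryonic mesenchyme, was at 56.73 FPKM in Lgr5+, 31.28 FPKM in Lgr5- and 45.66 FPKM in Sox9+ cells. It was highest where Has2 was highest, but within 2-fold. Bcan, which codes for brevican, was at 4.13, 0.49 and 1.37 FPKM in Lgr5+, Lgr5- and Sox9+ cells. It was the 1 gene of 10 past 2-fold in Lgr5+ over Lgr5- cells, at 1.78 (0.73 with a pseudocount of 5), beside 3.64% of all genes. Against Sox9+ cells Bcan and Ncan, which codes for neurocan (1.51, 0.49 and 0.23 FPKM), were higher in Lgr5+ cells at 1.11 and 1.03. Both were short of 2-fold with a pseudocount of 5, at 0.52 and 0.32, and Ncan also with upper-quartile scaling, at 0.97, and marginally with median-of-ratios scaling. C1qbp, mostly a mitochondrial protein that also binds hyaluronan, was at 122.2, 107.95 and 148.03 FPKM, and Tnfaip6, which codes for TSG-6, an enzyme that moves heavy chains onto hyaluronan, at 51.72, 42.58 and 83.01 FPKM in Lgr5+, Lgr5- and Sox9+ cells. The chains it moves come from the inter-alpha-trypsin inhibitor family, where 1 of 6 genes was measured, Itih5, at 2.59, 2.04 and 0.99 FPKM in the same libraries.

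Hyal2 was the most abundant of the 9 genes, and the 1 past 2-fold in Lgr5+ over Sox9+ cells. Its product is tethered to the cell surface and cuts long hyaluronan into shorter chains. Hyal2 was at 64.18 FPKM in Lgr5+, 52.5 FPKM in Lgr5- and 28.98 FPKM in Sox9+ cells, above 94.1%, 93.5% and 87.5% of all listed genes. Both E14.5 libraries were high and the E13.5 library was low. Its log2 ratio was 1.12 in Lgr5+ over Sox9+ cells, or 2.17-fold higher, and 0.84 in Lgr5- over Sox9+ cells, or 1.78-fold higher, both above the middle 90% of all genes, which ended at 0.94 and 0.82. Between Lgr5+ and Lgr5- cells it differed by 0.28, or 1.22-fold. Relative to the median of all genes the first ratio was 1.06, and 1.08 in TPM. The macrophage list was higher in Lgr5+ than in Sox9+ cells too, with 6 of 8 measured genes past 2-fold, and its part in Hyal2 was not tested.

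The Hyal2 promoter is printed beside that of Hmmr because it held neither CCAAT nor TTTGAA, as was also the case for Cd44. The window of the same length on the plus strand, chr9:107568913-107569212 of GRCm38.p6, lies inside the span of the gene in the GENCODE annotation, chr9:107567945-107572779, and capitals mark the 1 GC box.
Hyal2 promoter: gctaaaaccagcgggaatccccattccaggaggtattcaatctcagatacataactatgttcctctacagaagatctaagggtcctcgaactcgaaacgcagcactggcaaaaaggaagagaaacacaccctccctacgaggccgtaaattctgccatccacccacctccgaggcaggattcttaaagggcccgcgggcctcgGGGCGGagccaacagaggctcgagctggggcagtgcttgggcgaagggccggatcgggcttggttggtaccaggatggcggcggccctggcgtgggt
By the same search it held 1 GC box and no match to the CCAAT box, the CHR element or the TATA box. These letters are absent from this window, which says nothing of any factor. The table of promoters matched 5 of the 9 genes.

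Hyal1, whose product degrades hyaluronan in lysosomes, is a neighbour of Hyal2 on the same strand, at chr9:107576927-107581710, with 4147 bases between the genes. Hyal1 was at 4.84 FPKM in Lgr5+, 3.46 FPKM in Lgr5- and 4.49 FPKM in Sox9+ cells. It did not share the step of Hyal2: its log2 ratios were 0.39, 0.09 and -0.30 in Lgr5+ over Lgr5-, Lgr5+ over Sox9+ and Lgr5- over Sox9+ cells. Of its 3777 exonic bases 1920 (50.8%) are shared with Naa80 and 159 with Hyal3 on the same strand. The value of Hyal1 may therefore hold reads of those genes or lack reads given to them. Naa80, listed under Nat6, was at 8.97, 7.3 and 4.56 FPKM in Lgr5+, Lgr5- and Sox9+ cells. Over Sox9+ cells the log2 ratios in Lgr5+ and Lgr5- cells were 0.84 and 0.58 for Naa80 and 0.65 and 0.53 for Hyal3. The part of shared reads in the Hyal1 ratios was not tested. The level of Hyal2 was 13.3, 15.2 and 6.45 times that of Hyal1 in Lgr5+, Lgr5- and Sox9+ cells on the FPKM scale.

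Tmem2, listed as Cemip2 in the annotation, codes for a membrane protein that cuts hyaluronan outside the cell in mouse. It was at 23.94 FPKM in Lgr5+, 17.15 FPKM in Lgr5- and 26.37 FPKM in Sox9+ cells. The Lgr5- library was the low one, at 0.46 in Lgr5+ over Lgr5- cells (1.37-fold) and -0.59 in Lgr5- over Sox9+ cells (1.51-fold lower), while Lgr5+ and Sox9+ cells differed by -0.13, a sign that turned to 0.01 in TPM. The level of Hyal2 was 2.68 times that of Tmem2 in Lgr5+, 3.06 times in Lgr5- and 1.10 times in Sox9+ cells. Hyal1, Hyal2 and Tmem2 summed to 92.96 FPKM in Lgr5+, 73.11 FPKM in Lgr5- and 59.84 FPKM in Sox9+ cells.

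In the wider breakdown list Hyal2 was the 1 gene past 2-fold in any comparison. Of 12 listed genes 8 were measured: Hyal4, Hyal5 and Spam1, hyaluronidase genes of other tissues, were listed at 0 in all libraries, and Cemip, listed under 9930013L23Rik, did not pass 0.06 FPKM. None passed 2-fold between the E14.5 populations, where all 8 lay above 0 (7 after upper-quartile scaling) with a median of 0.32. Besides Hyal2 none was in Lgr5+ over Sox9+ cells, with a median of 0.19 for the 8, and none was in Lgr5- over Sox9+ cells, with a median of -0.10. The lysosomal enzymes that take fragments apart were at 26.34, 20.45 and 23.45 FPKM for Gusb and at 45.16, 33.07 and 38.63 FPKM for Hexa in Lgr5+, Lgr5- and Sox9+ cells. Hyal3, a further neighbour, was at 1.49, 1.3 and 0.59 FPKM in the same libraries.

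Prg4 was low in all populations. It was at 1.19 FPKM in Lgr5+, 1.14 FPKM in Lgr5- and 2.36 FPKM in Sox9+ cells, above 49.7%, 49.6% and 55.6% of all listed genes. The E14.5 libraries were alike and the E13.5 library was the higher one. The log2 ratios were 0.03 in Lgr5+ over Lgr5-, -0.62 in Lgr5+ over Sox9+ (1.53-fold lower) and -0.65 in Lgr5- over Sox9+ cells (1.57-fold lower). At these low levels the added 1 FPKM shrinks the ratios. With a pseudocount of 0.1 the last 2 were -0.93 and -0.99. As plain ratios of FPKM, Sox9+ cells had 1.98 times the value of Lgr5+ and 2.07 times that of Lgr5- cells. Prg4 lies at chr1:150449412-150466165 on the minus strand, and 204 of its 4280 exonic bases (4.77%) are shared with Tpr on the other strand, where reads cannot be told apart.

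Genes tied to lubricin in mouse or human cells went in several directions. Of 11 listed genes 10 were measured, and Ctsg, a protease that cuts lubricin, was listed at 0. In Lgr5+ over Lgr5- cells 5 lay above 0 and 5 below, with a median of -0.03, beside 0.08 for all genes. Creb5, a transcription factor needed for Prg4 in articular cartilage, was at 49.93 FPKM in Lgr5+, 25.8 FPKM in Lgr5- and 19.1 FPKM in Sox9+ cells. Lgr5+ cells were the highest, at 0.93 in Lgr5+ over Lgr5- and 1.34 in Lgr5+ over Sox9+ cells. Foxo1, another transcription factor of the list, was highest in Sox9+ cells, at 8.64, 9.96 and 17.31 FPKM in Lgr5+, Lgr5- and Sox9+ cells. Its log2 ratios were -0.93 in Lgr5+ over Sox9+ and -0.74 in Lgr5- over Sox9+ cells. Tgfb2, a ligand of the TGF-beta pathway that induces Prg4, was at 120.3, 27.44 and 36.24 FPKM in Lgr5+, Lgr5- and Sox9+ cells and was the 1 gene of the list past 2-fold between the E14.5 populations, at 2.09; it was 1.70 over Sox9+ cells. In Lgr5+ over Sox9+ cells Ctss, a lysosomal protease also made by macrophages, was the other higher gene (4.26, 3.93 and 0.53 FPKM, 1.78; 0.74 with a pseudocount of 5) and Tgfb1 the 1 lower (2.27, 4.07 and 5.62 FPKM, -1.02; -0.55 with a pseudocount of 5, -0.99 in TPM and -0.95 without Rn45s and the haemoglobin genes). In Lgr5- over Sox9+ cells 2 were higher, Ctss at 1.69 (0.69 with a pseudocount of 5) and the receptor gene Tgfbr2 at 1.18 (19.82, 33.63 and 14.32 FPKM in Lgr5+, Lgr5- and Sox9+ cells), which was just under 2-fold with a pseudocount of 5. Macrophage genes were at least 2-fold higher than in Sox9+ cells in both, for 6 of 8 measured in Lgr5+ and 3 of 5 in Lgr5- cells (4 and 1 with a pseudocount of 5), and their part in Ctss was not tested.

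Genes of the synovial lining and superficial zone, the layers where lubricin is made in a finished joint, were in part higher in Lgr5+ cells. Prg4 itself is on this list and is part of its counts and medians. Of 12 measured genes of that list 4 were at least 2-fold higher in Lgr5+ than in Lgr5- cells and none was that much lower. Beside this, 3.64% of all measured genes were at least 2-fold higher. Like the interzone list, this list was chosen with earlier results of these data known, and Erg is on both. The median log2 ratio was 0.36, beside 0.08 for all genes. Above 0 lay 8 of the 12, with Prg4 at 0.03 among them (7 with median-of-ratios and 6 with upper-quartile scaling). The 4 below 0 were Vcam1 and Thy1, both at -0.68, Tspan15 at -0.28 and Pdpn at -0.14. Cilp, a matrix protein gene of cartilage and tendon, was at 58.03 FPKM in Lgr5+, 0.75 FPKM in Lgr5- and 0.2 FPKM in Sox9+ cells, a log2 ratio of 5.08 in Lgr5+ over Lgr5- cells. Col22a1, a collagen gene of tissue junctions, was at 15.82, 1.93 and 1.5 FPKM, Thbs4, a thrombospondin gene of tendon and muscle, at 12.9, 2.94 and 2.09 FPKM, and Erg, a transcription factor of the interzone, at 25.21, 9.99 and 10.34 FPKM in the same libraries. The 8 muscle genes were at least 2-fold higher in Lgr5+ cells in this comparison (4 with a pseudocount of 5, and 7 with median-of-ratios scaling, upper-quartile scaling or without Rn45s and the haemoglobin genes), and their part in Thbs4 and Col22a1 was not tested. In Lgr5+ over Sox9+ cells 6 of 11 measured genes were at least 2-fold higher, beside 4.33% of all genes, and the median was 1.06. Added to the 4 above were Cdh11 (168.91, 110.22 and 70.36 FPKM, 1.25) and Icam1 (11.98, 11.09 and 5.22 FPKM, 1.06). For Icam1 the ratio was 0.97 after upper-quartile scaling and 0.73 with a pseudocount of 5. Prg4 was the 1 measured gene below 0 there, at -0.62. Erg was at 0.98 there with a pseudocount of 5. In Lgr5- over Sox9+ cells 1 of 11 was at least 2-fold higher, the adhesion gene Vcam1 (56.72, 91.26 and 38.06 FPKM, 1.24), beside 3.08% of all genes.

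Genes with the profile most like each of the 8 measured genes were found by the distance of log2(FPKM + 1), centred on the mean of each gene over the 3 libraries, among 12753 genes. With 3 libraries such likeness is common for flat profiles: 664 genes lay within 0.1 of Has1 and 432 of Hyal1, but 51 of Has2, 26 of Hyal2 and 11 of Hmmr. The nearest to Has2 were Arhgap31 at a distance of 0.020 (13.4, 7.38 and 6.6 FPKM in Lgr5+, Lgr5- and Sox9+ cells), Pitpnm2 and Pitpnm1. The nearest to Hmmr were Krtcap3 at 0.022 (4.88, 2.34 and 7.75 FPKM), Klhl21 and P4ha1, and the nearest to Hyal2 were Gm16517 at 0.0060 (99.21, 81.73 and 45.19 FPKM), Fbxo6 and Lix1. For Tmem2 they were Hist1h2ak, Nhlrc3 and Homer1, for Prg4 Ckap2, Gabre and Haus6, for Cd44 Nfya, Ppdpf and Brdt, for Hyal1 Leprel2, Nup107 and Cdadc1, and for Has1 Lama2, 2210408I21Rik and Sdr39u1. None of them is another of the 9 genes.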

How the data were processed

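RNA of 3 sorted populations was sequenced, 1 library each. The deposited files hold 1 FPKM value, with 2 decimals, for each of 23284 gene symbols, as computed by the authors. Per the submitters' processing notes, reads were handled with HISAT2 on mm10 (GRCm38). What turned alignments into FPKM, with which annotation and with which rule for multiple matches, was not given in the sources used here. Counts were not part of the files, so the depth is unknown and no interval could be set; the libraries summed to 534025, 547115 and 593871 FPKM (Lgr5+, Lgr5-, Sox9+) and listed 12002, 11969 and 11924 genes at 1 FPKM or more.

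Log2 ratios of FPKM + 1 were computed for all genes with Python 3.11.15, numpy 2.4.6 and pandas 2.3.3; the ratio code was tested on simulated data. The 9 genes and the 17 gene lists were chosen with earlier results of these data known. Named are all 9 genes and listed genes at least 2-fold different in a comparison. Up to 4 genes of the highest FPKM per list and the 3 most alike genes per gene are named too. As an exception, the cartilage, red blood cell, muscle, epidermis, macrophage and endothelium lists are given as sums and counts, with few genes named. The interzone genes are named by the comparison of Lgr5+ with Lgr5- cells. Some genes that went the other way from most of their list are also named. Gene positions came from the GENCODE annotation and promoters from RefSeq, both of GRCm38, and symbols were matched through RefSeq synonyms. Alternatives were pseudocounts of 0.1 and 5, no minimum and a minimum of 5 FPKM, 4 scalings, and thresholds of 1.5-fold and 3-fold; scaling without Rn45s and the haemoglobin genes was added after seeing the data. Of the listed genes, 2 are not reported here and were left out of the lists.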

Additional observations from a re-analysis of the deposited data

How the results depend on the processing

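With a pseudocount of 0.1, 5, a threshold of 1.5-fold and of 3-fold, the genes at least that different numbered 1152, 283, 1919 and 230 in Lgr5+ against Lgr5- cells (688 as reported), 1685, 386, 2811 and 328 in Lgr5+ against Sox9+ cells (1036), and 1679, 412, 2782 and 314 in Lgr5- against Sox9+ cells (1001). Other minimums and scalings kept each count within 1.5 times.

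Of the 9 genes, 0 differed by 2-fold between Lgr5+ and Lgr5- cells and 3 by 1.5-fold (Has2, Hmmr, Cd44). In Lgr5+ against Sox9+ cells 1 was counted, 2 with a pseudocount of 0.1, in TPM or without Rn45s and the haemoglobin genes (Has2 joins Hyal2), 3 at 1.5-fold (also Prg4) and 0 at 3-fold. In Lgr5- against Sox9+ cells 1 was counted, 0 with a pseudocount of 5 or at 3-fold, and 4 at 1.5-fold (Hyal2, Prg4, Hmmr, Tmem2). These follow from the thresholds, pseudocounts and sums themselves. Of 162 ratios of single genes recomputed under the pseudocounts and scalings, 155 kept their direction and side of 2-fold, 3 of Has2 passed it, 1 of Hmmr no longer did, and 3 below 2-fold changed sign. The ratios of Has3 are among the 162, and under the minimum of 1 FPKM they could not be counted as 2-fold. No paired analysis was possible because each population has 1 library. The unknown depth and the low RNA input limit the genes near 1 FPKM most: Prg4, Has1 and Cd44.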
